A study of Mus musculus with 3 samples.

Results

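The contractile genes of smooth muscle are a set of 10 genes of the 32293 features in the count tables: Acta2, Tagln, Myh11, Myl9, Cnn1, Des, Smtn, Lmod1, Mylk and Cald1. They were chosen by name, with earlier results of these data known, and all 10 were found. Their transcripts were followed through 5 classes of nonhematopoietic (CD45-) thymic cells in 3 single-cell libraries from untreated C57BL/6 mice aged 20 months. The libraries were a Foxn1 lineage trace female (Foxn1Lin female), a Foxn1 lineage trace male (Foxn1Lin male) and a wild type male, with 1 library in each group. In the lineage trace a Cre recombinase under Foxn1, a transcription factor of thymic epithelium, turns on a reporter in cells that have expressed Foxn1. The reporter was not measured in the classes described here. Thymi were pooled for sorting according to the protocol, which names female mice although 2 of the 3 libraries are labelled male, and the wild type library is called CD45- in its title but CD45-PECAM1+ in its cell type field. Animals, sex, genotype and library therefore cannot be told apart in any comparison of libraries.

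Smooth muscle contracts when calcium-bound calmodulin activates myosin light chain kinase (Mylk), which phosphorylates the regulatory light chain (Myl9) on smooth muscle myosin (heavy chain Myh11), so that myosin pulls on filaments of smooth muscle actin (Acta2). Transgelin (Tagln), calponin (Cnn1), caldesmon (Cald1), smoothelin (Smtn) and leiomodin (Lmod1) bind or build the actin filaments, and desmin (Des) is the intermediate filament of muscle. Many of these genes are known targets of serum response factor, which binds the CArG box (CC, then 6 letters that are A or T, then GG) together with myocardin. In vessels, smooth muscle cells wrap arteries and veins, whereas pericytes sit on capillaries and are known to hold less of the contractile machinery.

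The promoters of Acta2 and Myl9 are shown because, of the members with a promoter window, only these held a CArG box or a box with up to 1 other letter in its centre. The windows are RefSeq sequence (GRCm38.p6) from 250 bases before to 50 bases after the point taken as transcription start. They are written 5′ to 3′ along the gene's strand, with the boxes in capitals.
Acta2, chr19:34255324-34255623, minus strand: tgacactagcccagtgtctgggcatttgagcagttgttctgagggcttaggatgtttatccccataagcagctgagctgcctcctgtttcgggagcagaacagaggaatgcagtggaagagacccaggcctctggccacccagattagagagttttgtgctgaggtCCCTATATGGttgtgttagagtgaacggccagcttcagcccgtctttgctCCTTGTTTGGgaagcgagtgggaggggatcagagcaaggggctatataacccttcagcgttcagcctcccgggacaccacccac
Myl9, chr2:156775214-156775513, plus strand: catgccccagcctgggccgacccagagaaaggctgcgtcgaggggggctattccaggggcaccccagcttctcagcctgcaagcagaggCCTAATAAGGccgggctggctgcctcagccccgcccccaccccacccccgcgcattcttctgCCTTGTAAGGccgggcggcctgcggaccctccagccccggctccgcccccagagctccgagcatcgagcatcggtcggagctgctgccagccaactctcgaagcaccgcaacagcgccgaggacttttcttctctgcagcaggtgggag
Positions of boxes are offsets from the start point of the window, and the annotated genes given below begin at other points. In Acta2 the boxes began at -84 and -34, and each had 1 other letter in its centre. In Myl9 a box with no other letter began at -161 and a box with 1 other letter at -99. Over all 32851 promoter windows, on both strands, 1.63% held an exact CArG box and 9.98% a box with up to 1 other letter. Windows were found for 8 of the 10 members, and Cnn1, Des, Smtn, Lmod1, Mylk and Cald1 had no such box in theirs. The letters CATTCC, the core of the MCAT element bound by TEAD factors and sought on both strands, occurred in 14.7% of all windows and in the windows of Acta2, Smtn, Lmod1, Mylk and Cald1. These matches describe the letters in the windows and not bound sites.

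Classes were set by unique molecular identifiers (UMIs), each 1 counted transcript molecule, in a cell barcode. Smooth muscle cells had at least 5 Acta2 UMIs and at least 2 Myh11 UMIs. The pericyte gate asked for at least 2 UMIs of Abcc9 and Kcnj8 together, subunits of the potassium channel of pericytes, with 0 of Myh11 and 0 of Pecam1. Fibroblasts (FB) had at least 2 Pdgfra UMIs, epithelial cells (TEC) at least 2 of Epcam and endothelial cells (EC) at least 2 of Pecam1. Of 17168 barcodes kept after the quality filter, 10542 fell in 1 class, 1597 fell in more than 1 and were dropped, and 5029 fell in none. The classes held 794 smooth muscle cells, 408 cells of the pericyte gate, 3431 FB, 3873 EC and 2036 TEC. Called barcodes of the Foxn1Lin female library carried 53366016 UMIs, those of Foxn1Lin male 33386621 and those of wild type male 61258534. Values given as a series of 3 follow this order of libraries. Any pair of libraries shared 3 to 14 barcodes.

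The smooth muscle class held the markers of its label, and those of pericytes as well. All 7 markers of smooth muscle outside the gate were detected in each library, with a summed level of 1500 to 1797 CPM (UMIs of a gene in 1000000 UMIs of the class), against 37.4 to 76.1 CPM in the pericyte gate. Its markers of pericytes outside the gate summed to 3235 to 7086 CPM, above its smooth muscle markers. The name smooth muscle cells therefore stands for all barcodes of this gate, and the part of pericytes among them was not tested. The pericyte gate did not match its label. Its own pericyte markers outside the gate summed to 1609 to 3120 CPM, below those of the smooth muscle class, and Rgs5 was seen in 51.5%, 25.2% and 31.0% of its barcodes. All 8 FB markers were detected in it, at a sum of 6290 to 11379 CPM against 15030 to 17587 CPM in FB. All 6 mesothelial markers were detected in the gate in Foxn1Lin female, at a sum of 713 CPM against 378 CPM in FB of that library, and the sum was 2.20 and 3.54 CPM in the gate of Foxn1Lin male and wild type male, where Upk3b was at 0. At least 1 UMI of Col1a1, Col3a1, Lum or Dpt was present in 77.8%, 89.0% and 94.3% of its barcodes, and 50.1%, 72.8% and 86.2% of the barcodes first taken by the gate had been dropped for passing another gate as well. The class is therefore called Abcc9/Kcnj8-gated cells, and the part of FB transcripts in its values was not tested beyond the narrower gates given below.

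All 10 contractile genes were highest in smooth muscle cells in each of the 3 libraries, a result of the gates for Acta2 and Myh11. Together they made up 2.53%, 2.16% and 2.04% of all UMIs of the smooth muscle class. The same sum was 0.198%, 0.250% and 0.236% in Abcc9/Kcnj8-gated cells and 0.0888% to 0.132% in FB. It was 0.0513% to 0.0830% in EC and 0.0318% to 0.0417% in TEC. The order of the classes was the same in the libraries, but Acta2 and Myh11, which set the gates, are part of these sums.

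**Figure D1:**
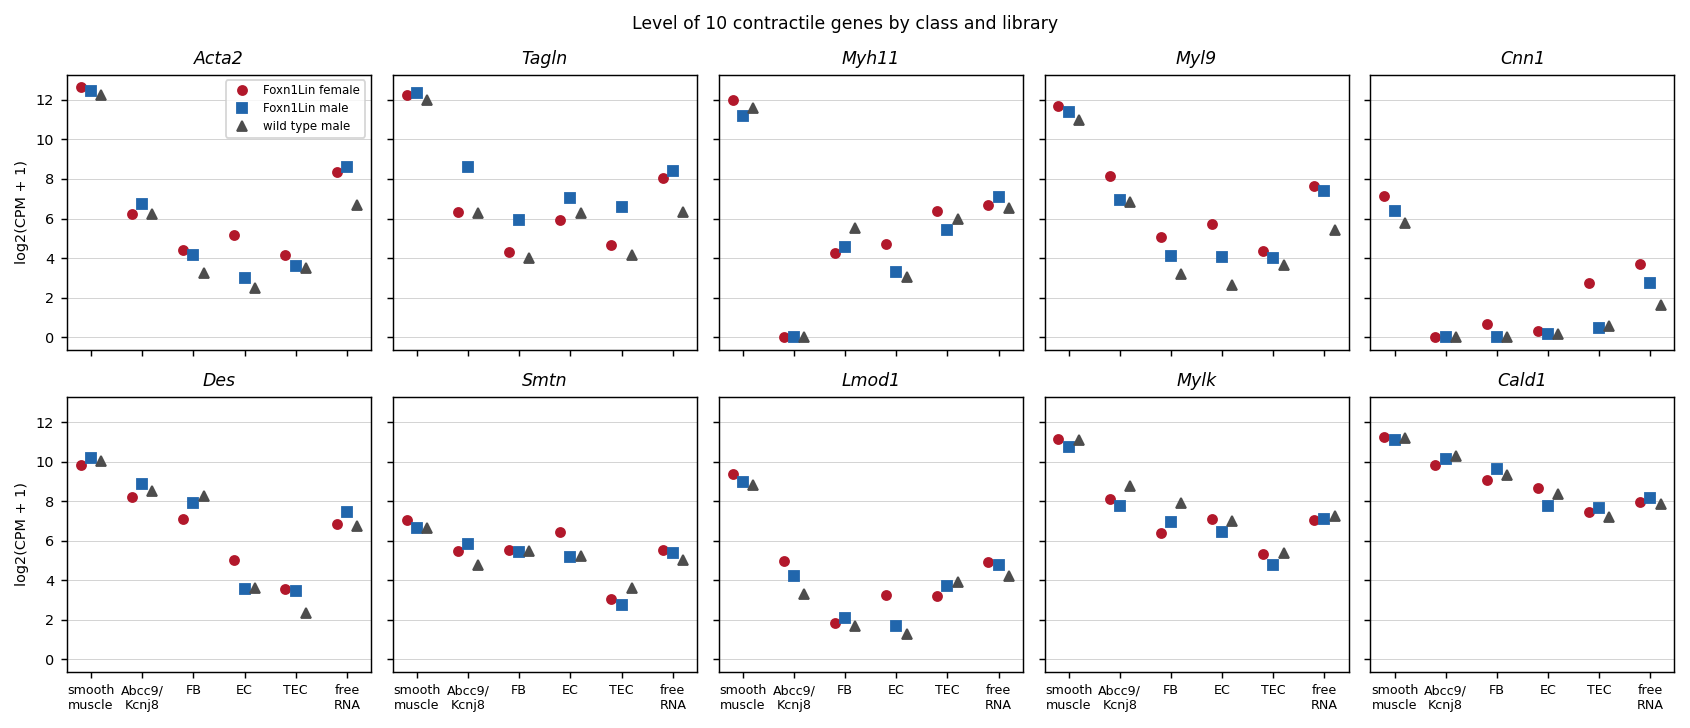
Level of the 10 contractile genes as log2(CPM + 1), on the vertical axis, in the 5 classes and in the RNA outside cells (free RNA), with 1 point for each library. The smooth muscle points lie above those of all other classes in each panel, for example 4948 to 6436 CPM of Acta2 against at most 106.8 CPM in the Abcc9/Kcnj8-gated cells.

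Acta2, the actin of the thin filament, stood at 6436 CPM in smooth muscle cells of Foxn1Lin female, 5535 CPM in Foxn1Lin male and 4948 CPM in wild type male. Myh11, the motor protein, was at 4114, 2348 and 3139 CPM in the same order. Both genes were used to choose these cells, so their levels are a description without a test. Acta2 was not part of the other gate and was found there at 74.4, 106.8 and 74.3 CPM, whereas Myh11 was 0 by the rule. On the genome (GRCm38) Acta2 is at chr19:34241090-34255590 and Myh11 at chr16:14194535-14291372, both on the minus strand.

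For the 8 members outside both gates, smooth muscle cells were compared with Abcc9/Kcnj8-gated cells over the sums of the 3 libraries (edgeR quasi-likelihood test, with library as a block and Benjamini-Hochberg adjustment over 16944 genes). All 8 were called higher in smooth muscle cells, though Cnn1 passed the filter on low counts only through its smooth muscle sums. Of all genes tested, 11.2% were called higher and 9.5% lower, and the members' median log2 fold change was 3.71 against -0.01 for all genes. With plain totals in place of TMM scaling the split of all calls moved from 1900 higher and 1610 lower to 1312 higher and 2497 lower, the median of all genes moved to -0.23, and the members still counted 8 of 8. The library block removes a shift shared by all classes of a library. The p-values therefore rest on the scatter left after class and library, pooled over the sums of all classes. These sums come from 3 libraries of different groups, so the spread between replicate animals was not measured.

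The regulatory light chain Myl9 (chr2:156775420-156781658) was at 3277, 2677 and 2057 CPM in the smooth muscle class. In Abcc9/Kcnj8-gated cells it was at 284, 121 and 111.5 CPM, a log2 fold change of 4.36 ± 0.40 (SE derived from the test statistic, n = 3 libraries, edgeR adjusted p = 1.32e-05). The light chain thus differed by a wide margin although Foxn1Lin female was the highest library in both classes. Mylk (chr16:34745210-35002420), the kinase that phosphorylates it, was at 2250, 1722 and 2208 CPM against 277, 214 and 427 CPM. Its log2 fold change was 3.05 ± 0.26 (edgeR adjusted p = 9.54e-06), so the kinase was higher in each library as well.

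Tagln (chr9:45929619-45936058), an actin-binding protein of the calponin family, was at 4953, 5303 and 4039 CPM in smooth muscle cells. It was at 80.7, 389 and 77.9 CPM in Abcc9/Kcnj8-gated cells, with Foxn1Lin male standing apart from both other libraries. The log2 fold change was 5.40 ± 0.46 (edgeR adjusted p = 8.82e-06). Cnn1 (chr9:22099216-22109630), calponin itself, was at 138, 81.7 and 53.7 CPM in smooth muscle cells and had 0 UMIs in all 408 Abcc9/Kcnj8-gated cells. Against a floor of 3 UMIs over that class it was at least 64.4-fold higher in smooth muscle cells. Few Cnn1 UMIs were in the other classes, 8 in FB, 5 in EC and 57 in TEC. It passed the filter on low counts only through its smooth muscle sums, so no p is given here. Cnn1 was seen in 17.2%, 7.19% and 7.59% of smooth muscle cells thinned to 2000 UMIs, and in 30.4%, 20.4% and 17.2% of them at full depth. At either depth most smooth muscle cells gave no Cnn1 molecule in any library. In TEC the share was 0% to 0.199% after thinning and 0.426% to 0.775% at full depth.

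Lmod1 (chr1:135324807-135368065), which starts new actin filaments, was at 665, 494 and 451 CPM in smooth muscle cells and at 30.3, 17.6 and 8.85 CPM in Abcc9/Kcnj8-gated cells. Its log2 fold change was 5.06 ± 0.49 (edgeR adjusted p = 2.0e-05). After thinning, 67.2%, 54.2% and 50.2% of smooth muscle cells had an Lmod1 UMI, against 1.99% to 2.43% of TEC. Lmod1 was thus far more frequent in thinned smooth muscle cells than in epithelial cells of each library, though at only 50.2% in wild type male. Smtn (chr11:3517523-3540612), a structural protein of contractile smooth muscle, was at 132, 100.1 and 98.7 CPM against 44.1, 56.1 and 26.5 CPM. The log2 fold change of Smtn was 1.56 ± 0.35 (edgeR adjusted p = 0.00637). A Smtn UMI was found in 20.2%, 18.0% and 17.3% of thinned smooth muscle cells and in 0.664% to 2.04% of thinned TEC. The size of the Smtn difference depended on the gate, and was 3.86 with gated cells free of FB transcripts, of which 42, 12 and 5 remained (edgeR adjusted p = 0.00905).

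Des and Cald1 were also called higher in smooth muscle cells. Des (chr1:75360329-75368579) was at 907, 1168 and 1035 CPM in smooth muscle cells and at 297, 462 and 370 CPM in Abcc9/Kcnj8-gated cells, a log2 fold change of 1.70 ± 0.43 (edgeR adjusted p = 0.0131). The Des call was lost without Foxn1Lin male (edgeR adjusted p = 0.0891) and without wild type male (edgeR adjusted p = 0.0675), with the same direction in both. Cald1 (chr6:34598500-34775473) was at 2418, 2161 and 2373 CPM against 895, 1132 and 1264 CPM, a log2 fold change of 1.32 ± 0.23 (edgeR adjusted p = 0.00135). When only gated cells with an Rgs5 UMI and without Pdgfra were used, a choice made after the values had been seen, the Cald1 difference was 0.77 (edgeR adjusted p = 0.106) and the other 7 members kept their calls. Cald1 was found in 93.5% to 97.5% of thinned smooth muscle cells and in 74.7% to 87.2% of thinned Abcc9/Kcnj8-gated cells, in 59.7% to 72.7% of thinned FB and in 18.5% to 22.1% of thinned TEC. It was thus frequent in smooth muscle cells, gated cells and FB. With gated cells limited to those without Pdgfra and the 4 FB transcripts named above, likewise chosen after the values had been seen, all 8 members were still called higher in smooth muscle cells. Few gated cells remained under these choices, 97, 29 and 23 with Rgs5 and 42, 12 and 5 without the FB transcripts.

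**Figure D2:**
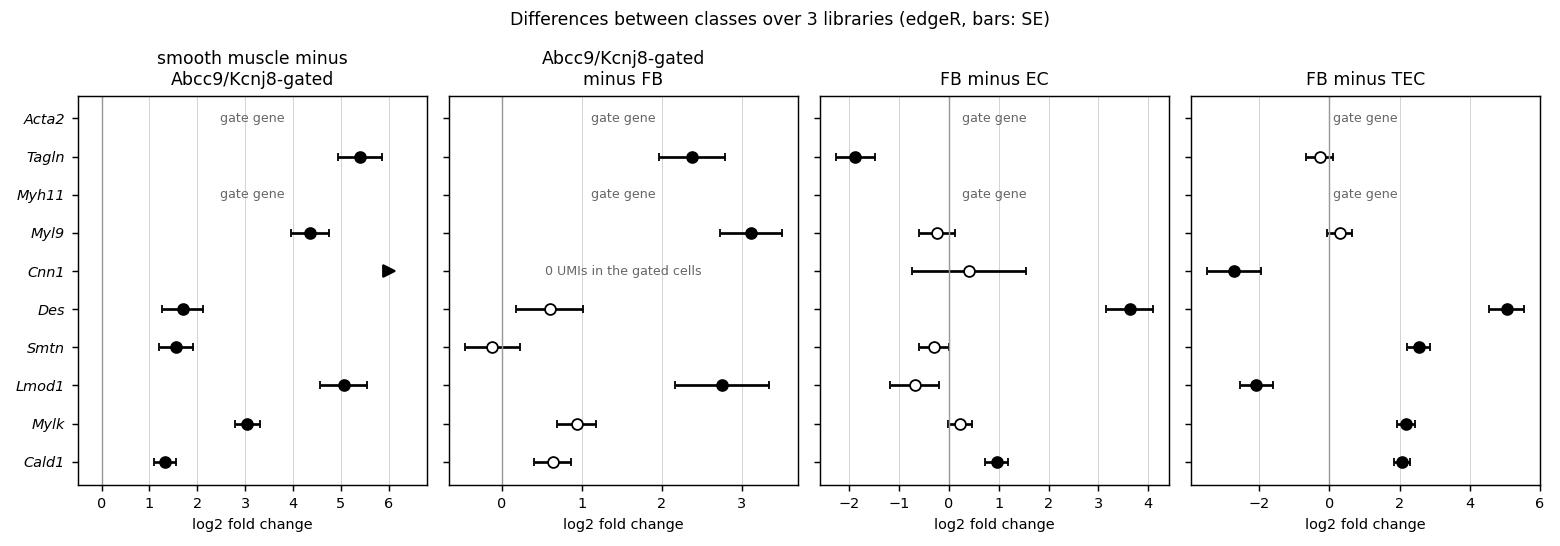
Log2 fold change of each member on the horizontal axis in 4 comparisons of classes over 3 libraries, with bars for the standard error, filled points for an edgeR adjusted p under 0.05 and open points for the rest. The triangle for Cnn1 marks the lower bound of a fold against 0 UMIs. All 8 members outside the gates are to the right of 0 in the first panel, and 3 are filled in the second.

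Genes that overlap members lie on the opposite strand in each case. The highest of them in smooth muscle cells was Gm13861, a long noncoding RNA opposite Cald1, at 95.8 CPM over the smooth muscle class and 1.32 CPM over the Abcc9/Kcnj8-gated cells. Gm13861 was picked after these values had been seen and was not tested.

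Single cells held the contractile genes together. After thinning to 2000 UMIs, smooth muscle cells had a median of 6, 5 and 5 of the 8 genes outside the gates in the 3 libraries. The median number of UMIs of these genes was 27, 26 and 23, and 0 smooth muscle cells lacked all 8. In Abcc9/Kcnj8-gated cells the median was 2 genes and 4 UMIs in each library, and 9.59%, 2.40% and 5.88% of the cells had none. The 2 classes overlapped only at their edges: the 90th percentile of the gated cells was at 8, 11.6 and 10.6 UMIs, and the 10th percentile of smooth muscle cells at 12, 12 and 11 UMIs. In TEC 62.8%, 69.9% and 68.6% of thinned cells had none of the 8.

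**Figure D3:**
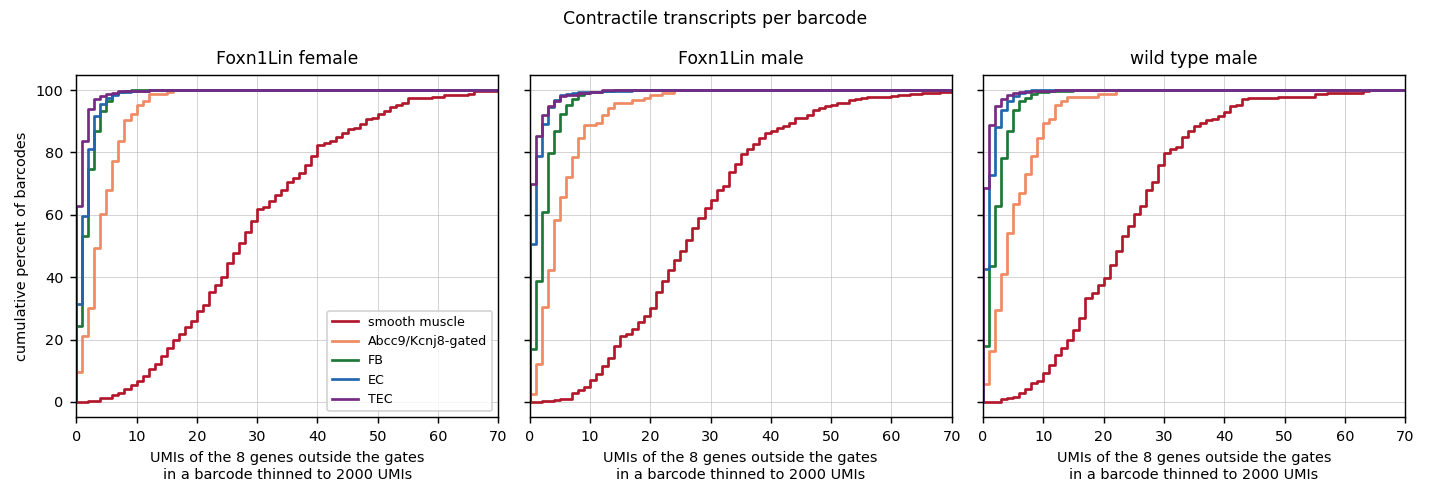
Cumulative percent of barcodes (vertical axis) by the UMIs of the 8 genes outside the gates in a barcode thinned to 2000 UMIs (horizontal axis), with a panel for each library and a line for each class. The smooth muscle line rises slowly to medians of 27, 26 and 23 UMIs, while the Abcc9/Kcnj8-gated cells reach their median at 4.

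Within smooth muscle cells Acta2, Tagln and Myl9 varied together. Spearman's rho over thinned cells ranged over the libraries from 0.637 to 0.695 for Tagln with Acta2, from 0.563 to 0.717 for Myl9 with Acta2 and from 0.570 to 0.652 for Tagln with Myl9. It was 0.338 to 0.476 for Mylk with Myh11 and 0.198 to 0.581 for Acta2 with Myh11. Des stood apart, with values between -0.0558 and 0.184 with all other members compared, and Cald1 had values from 0.0195 to 0.283, among them 0.0503 to 0.114 with Acta2. These are descriptions over cells that share a library and a depth, and Acta2 and Myh11 were also used to choose the cells.

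Some barcodes just outside the smooth muscle gate also held contractile transcripts. Barcodes with at least 5 Acta2 UMIs but 0 of Myh11 numbered 15, 21 and 15, and the 8 genes outside the gates summed to 1707, 4977 and 3476 CPM in them. With 1 Myh11 UMI (12, 21 and 5 barcodes) the sum was 3848, 6093 and 6743 CPM, with 2 or 3 it was 8436, 7347 and 5198 CPM, and with 4 or more it was 15213, 14615 and 12765 CPM. The sum was highest at 4 or more Myh11 UMIs in each library, and only 24, 40 and 16 smooth muscle cells were in the class just inside the gate. Barcodes that passed the Abcc9/Kcnj8 gate except for 1 Myh11 UMI had 2558, 2624 and 2019 CPM.

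**Figure D4:**
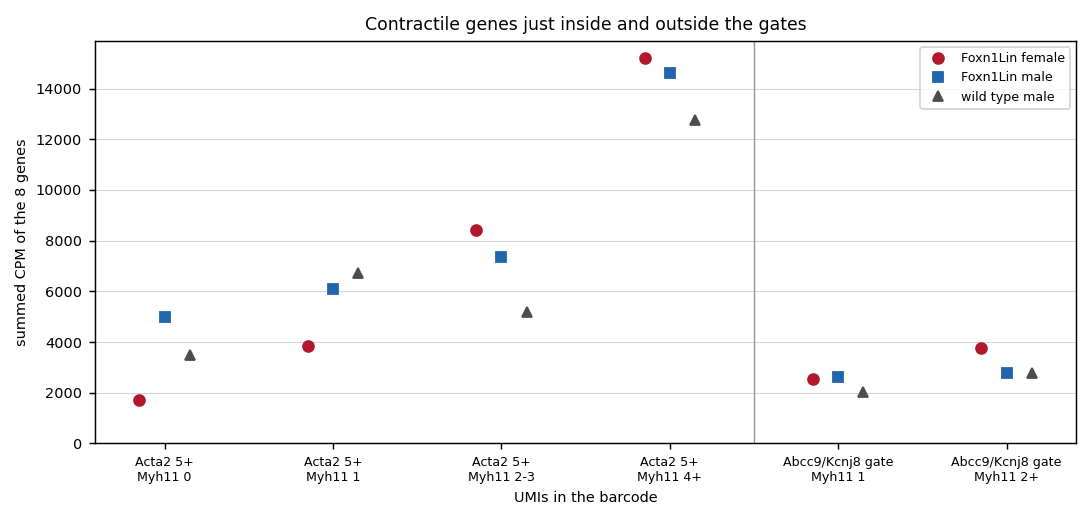
Summed CPM of the 8 genes outside the gates (vertical axis) in barcodes just outside and inside the smooth muscle gate (left of the line) and in barcodes that only the Myh11 condition kept out of the Abcc9/Kcnj8 gate (right of the line), with 1 point for each library. The sum reaches 12765 to 15213 CPM at 4 or more Myh11 UMIs and is 2019 to 3778 CPM to the right of the line.

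Abcc9/Kcnj8-gated cells were next compared with FB. Of the 8 members outside both gates, 3 were higher in the gated cells (Tagln, Myl9 and Lmod1), 0 were lower and 5 did not pass the test, where 1.53% of all genes tested were called higher and 0.856% lower. Plain totals gave the same 3 members, and the split of all calls was then 314 higher and 83 lower in place of 259 and 145, with the median of all genes at 0.04 in place of -0.07. Myl9 was at 284, 121 and 111.5 CPM in the gated cells and at 32.9, 16.4 and 8.04 CPM in FB, a log2 fold change of 3.11 ± 0.39 (edgeR adjusted p = 0.00139). Lmod1 was at 30.3, 17.6 and 8.85 CPM against 2.60, 3.24 and 2.18 CPM (2.75 ± 0.58 on the log2 scale, edgeR adjusted p = 0.0297). Both genes were above FB in each library. The gap in log2 units was 2.38 ± 0.41 for Tagln (edgeR adjusted p = 0.0105), with FB at 18.6, 58.7 and 14.8 CPM. Acta2 was at 19.9, 17.0 and 8.42 CPM in FB, and is given without a test because FB that passed the smooth muscle gate, with at least 5 Acta2 UMIs, had been dropped, while gated cells, with 0 of Myh11, lose none in that way.

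Of 15 other fits Tagln and Lmod1 were called in 12 each and Myl9 in 13. All 3 passed with DESeq2, with DESeq2 size factors, without the filters on counts or cells, with gates after thinning and with no Myh11 condition, and each of the last 2 fits called 5 of the 8 members. Without Foxn1Lin male only Tagln passed, without wild type male only Myl9, and without the library block only Lmod1, while all 3 passed without Foxn1Lin female. The Lmod1 call was also lost with doublets removed (edgeR adjusted p = 0.0749). In a fit of the 2 classes alone 6 members passed, Des, Mylk and Cald1 being added, and the share of all genes called was 7.72% in place of 2.38%. With the gated cells limited to those without the 4 FB transcripts and Pdgfra 2 members passed (4.97% of all genes), and with those that had an Rgs5 UMI 5 passed (11.7% of all genes). With gates after thinning the share of all genes was 3.76% and with no Myh11 condition 5.93%, so more genes were called in general in these fits too. The level of Tagln in the gated cells of Foxn1Lin male, 389 CPM, was over the 336 CPM of that library's free RNA, the RNA in barcodes without a cell, while Tagln was under free RNA in Foxn1Lin female (267 CPM) and wild type male (80.3 CPM). Lmod1 was just over free RNA in Foxn1Lin female (29.3 CPM) and under it in both other libraries (25.7 and 17.7 CPM), and Acta2 was under its free RNA level in all 3 libraries (331, 384 and 103 CPM). Myl9 of the gated cells was above free RNA in Foxn1Lin female (198 CPM) and wild type male (42.0 CPM) and below it in Foxn1Lin male (166 CPM). The part of free RNA in these values was not tested.

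The other members did not pass the test between the gated cells and FB. Mylk was at 82.8, 123 and 242 CPM in FB and differed by 0.93 ± 0.25 on the log2 scale (edgeR adjusted p = 0.0724), and Cald1 was at 528, 801 and 627 CPM in FB and differed by 0.64 ± 0.23 (edgeR adjusted p = 0.192). Des, at 138, 239 and 305 CPM in FB, differed by 0.60 ± 0.42 (edgeR adjusted p = 0.573). Smtn, at 45.8, 42.3 and 43.4 CPM in FB, differed by -0.12 ± 0.35 (edgeR adjusted p = 0.919), and by -2.44 with the gated cells free of FB transcripts (edgeR adjusted p = 0.153). A p that misses the threshold does not show that the classes were alike. Cnn1 had 0 UMIs in the gated cells and 8 in FB, too few for a fold.

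FB had more Des than EC and TEC. Des was at 31.1, 10.9 and 10.9 CPM in EC and at 10.5, 9.75 and 4.06 CPM in TEC, and FB exceeded EC by 3.63 ± 0.47 (edgeR adjusted p = 4.75e-05) and TEC by 5.06 ± 0.51 (edgeR adjusted p = 3.79e-06) on the log2 scale. Foxn1Lin female FB had the lowest Des level of the FB and was still above every EC and TEC value. Cald1 was also higher in FB, by 0.96 ± 0.23 over EC (edgeR adjusted p = 0.00492, but 0.0960 without Foxn1Lin male) and by 2.07 ± 0.24 over TEC (edgeR adjusted p = 1.16e-05), with 398, 216 and 322 CPM in EC and 171, 201 and 147 CPM in TEC. Barcodes that passed the FB, EC or TEC gate and the smooth muscle gate had been dropped, which removes the upper end of Acta2 and Myh11 from all 3 classes. FB that passed the Abcc9/Kcnj8 gate were dropped too, and since that gate asks for 0 Myh11 UMIs, this raises the Myh11 level of the FB that stayed.

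In FB against EC 2 of the 8 members outside both gates were higher in FB (Des and Cald1), against 19% of all genes, and 1 was lower (Tagln), against 22.1% of all genes. With plain totals the same members were called, and 21.4% of all genes were higher and 19% lower. Tagln was at 60.0, 130.5 and 77.6 CPM in EC, a difference of -1.88 ± 0.39 (edgeR adjusted p = 0.00186). These levels were under free RNA in each library (267, 336 and 80.3 CPM), and the part of free RNA in them was not tested. The 10 richest EC barcodes held 28.0%, 27.9% and 29.5% of the Tagln UMIs. EC values of Foxn1Lin female were the highest of the 3 libraries for every member except Tagln, which was lowest there. Among them were Acta2 (34.4 against 6.98 and 4.65 CPM), Myl9 (51.8 against 15.3 and 5.28 CPM), Smtn (86.7 against 35.6 and 36.3 CPM) and Lmod1 (8.64 against 2.20 and 1.38 CPM). The share of UMIs outside called barcodes was also highest in that library, at 26.5% against 12.9% in Foxn1Lin male and 9.46% in wild type male, and its part in the EC values was not tested. Without Foxn1Lin female Mylk was added as higher in FB, where 18.4% of all genes were higher and 21.1% lower. The Tagln call was lost without the library block.

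In FB against TEC 4 of the same 8 members were higher in FB (Des, Smtn, Mylk and Cald1), where 21.3% of all genes were, and 2 were lower (Lmod1 and Cnn1), where 34.7% were. The median of all genes was -0.23 in this comparison and -0.40 with plain totals. The split of all genes depended on the fit. It was 17.6% higher and 40.9% lower with plain totals and 27.6% and 28.5% with no cell filter, each with the same 6 members called. With gates after thinning it was 22% and 21.4%. Mylk was at 39.5, 26.4 and 40.8 CPM in TEC and lower than in FB by 2.18 ± 0.25 on the log2 scale (edgeR adjusted p = 1.38e-05). Smtn was at 7.27, 5.77 and 11.2 CPM in TEC, a gap of 2.55 ± 0.32 (edgeR adjusted p = 2.66e-05). Both genes were thus lowest in the epithelium, outside any overlap with FB. Lmod1 was higher in TEC, at 8.05, 12.2 and 14.1 CPM (free RNA 29.3, 25.7 and 17.7 CPM), with a difference of -2.09 ± 0.46 (edgeR adjusted p = 0.00192). Cnn1 was at 5.59, 0.385 and 0.461 CPM in TEC and at 0.595, 0 and 0 CPM in FB, a difference of -2.73 ± 0.77 (edgeR adjusted p = 0.0109), but 34 of the 43 TEC UMIs of Foxn1Lin female came from 1 barcode. The Cnn1 call was lost without the library block (edgeR adjusted p = 0.0859) and with gates after thinning (edgeR adjusted p = 0.0550).

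Myh11 in epithelium was below free RNA (103, 137 and 90.6 CPM) in each library, as Acta2 was. Myh11 was at 83.4, 41.9 and 61.7 CPM in TEC, above EC (25.3, 8.69 and 7.17 CPM) in each library and above FB (18.3, 22.5 and 45.0 CPM) in each library. No test is given, because the gates removed barcodes from these classes by their Myh11 UMIs. The ratio of Myh11 to Acta2 UMIs was 4.98, 3.8 and 5.94 in TEC, against 0.639, 0.424 and 0.634 in smooth muscle cells and 0.312, 0.357 and 0.882 in free RNA. It was 0.921, 1.33 and 5.35 in FB and 0.734, 1.25 and 1.54 in EC. The ratio thus stood above that of smooth muscle cells and of free RNA in TEC, FB and EC alike, and was highest in TEC in each library, with FB of wild type male close to TEC and EC of Foxn1Lin female close to smooth muscle cells. The gates bear on this, since barcodes that also passed the smooth muscle gate were left out of these classes, as were FB with 0 Myh11 UMIs that passed the Abcc9/Kcnj8 gate. Myh11 was found in 193 of 516, 110 of 470 and 333 of 1050 TEC, and the 10 richest barcodes held 20.4%, 34.3% and 18.1% of its UMIs. After thinning 11.7%, 5.09% and 8.95% of TEC had a Myh11 UMI.

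TEC were then divided by 1 marker at a time, a step chosen after these values had been seen. Where Aire, the regulator of promiscuous expression in medullary TEC, had at least 2 UMIs, Myh11 had 115, 80.7 and 122 CPM, and the other TEC had 70.1, 26.0 and 35.7 CPM. With at least 3 UMIs of Cldn3, a tight junction protein, it was at 34.7, 33.9 and 23.4 CPM against 98.8, 45.5 and 80.7 CPM. Myh11 was thus higher beside Aire and lower beside Cldn3 in each library. With at least 5 UMIs of Prss16, a protease of cortical TEC, Myh11 was at 122, 43.8 and 114 CPM against 68.0, 41.8 and 51.8 CPM, where Foxn1Lin male had only 18 such cells. Cald1 followed another marker, at 396, 564 and 410 CPM in TEC with at least 5 UMIs of the chemokine Ccl21a and 127, 107 and 92.6 CPM in the rest. Cald1 was lower in TEC with Aire in each library, at 114, 87.8 and 101 CPM against 196, 247 and 167 CPM.

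**Figure D5:**
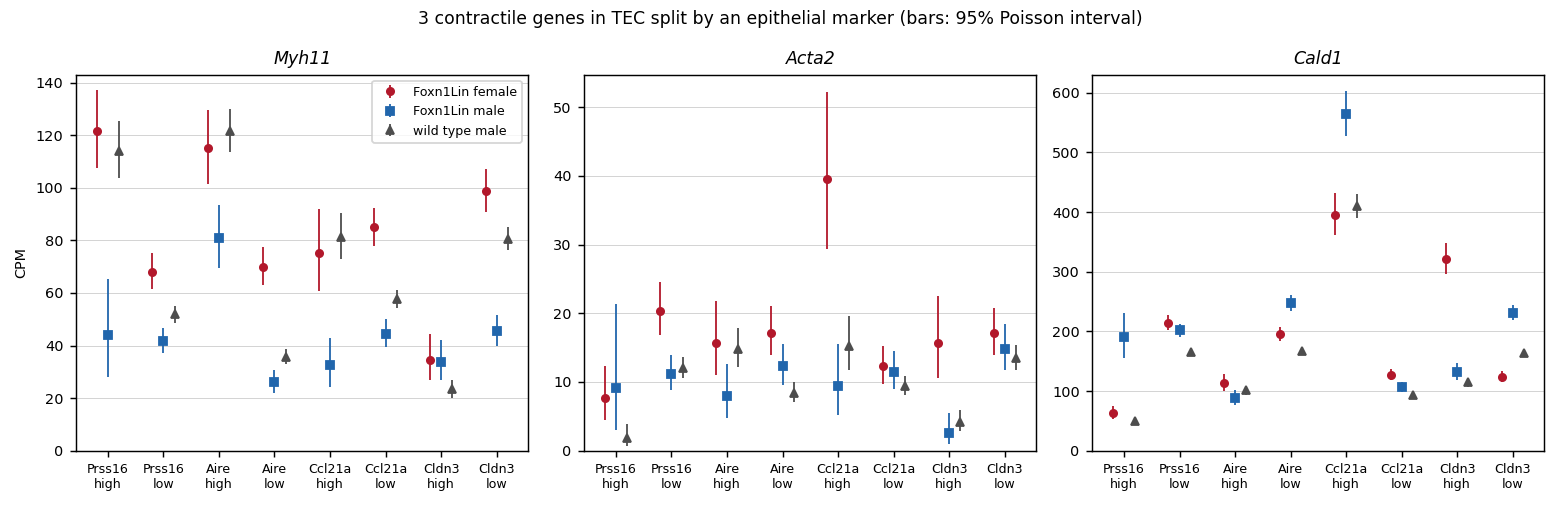
CPM of Myh11, Acta2 and Cald1 (vertical axes) in TEC split by the UMIs of 1 epithelial marker (horizontal axis), with a point for each library and bars for the 95% Poisson interval. Myh11 is higher in TEC with Aire in each library (115, 80.7 and 122 CPM), and Cald1 in TEC with Ccl21a (396, 564 and 410 CPM).

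Tagln in TEC was uneven. It was at 24.2, 93.8 and 16.7 CPM, and in Foxn1Lin male 107 of its 731 UMIs came from 1 barcode and 61.1% from the 10 richest. Acta2 (16.8, 11 and 10.4 CPM) and Myl9 (19.4, 14.7 and 11.5 CPM) were under the free RNA level of each library in TEC. Acta2 was uneven as well, since 61 of its 248 UMIs in wild type male TEC came from 1 barcode, and 40.3%, 58.1% and 58.5% from the 10 richest. The part of free RNA in these levels was not tested.

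Foxn1Lin female was compared with Foxn1Lin male, which differ in the label of sex, and Foxn1Lin male with wild type male, which differ in genotype and in the cell type field. In smooth muscle cells none of the 10 passed 2-fold between Foxn1Lin female and Foxn1Lin male, where 8.1% of the 7134 genes with at least 50 UMIs did, and none between Foxn1Lin male and wild type male, where 6.07% of 7641 did. These shares would give less than 1 gene of 10, so nothing is read from the count of 0. The widest gap in these pairs was that of Myh11, higher in Foxn1Lin female by 0.81 on the log2 scale (95% counting interval 0.75 to 0.87), followed by Cnn1 at 0.75 (0.43 to 1.07). Cnn1 lay farther apart between Foxn1Lin female, at 138 CPM, and wild type male, at 53.7 CPM, a pair that was not compared because sex and genotype both differ. With 1 library a group there is no test, and the intervals cover counting error only.

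In Abcc9/Kcnj8-gated cells 2 of the 7 members with enough UMIs passed 2-fold in each of these pairs. For Foxn1Lin female against Foxn1Lin male, where 12.8% of genes passed, they were Tagln, with a log2 ratio of -2.27 (-2.68 to -1.88), and Myl9, with 1.23 (0.89 to 1.57). The mesothelial markers differ between the same gated cells, at 713 and 2.20 CPM, and their part in these ratios was not tested. For Foxn1Lin male against wild type male, where 9.38% passed, they were Tagln at 2.32 (1.86 to 2.81) and Smtn at 1.08 (0.23 to 2.02). Tagln was thus high in Foxn1Lin male gated cells alone, at 389 CPM, and that library also had the highest Tagln level of FB, EC, TEC and free RNA.

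The other genes of the contractile pathway were read in lists for smooth muscle cells against Abcc9/Kcnj8-gated cells. In this comparison 11.2% of all genes were called higher and 9.5% lower, and the calls over all genes fell from 3510 to 949 with gated cells free of FB transcripts. Of the 8 measured regulators 7 were higher, 0 lower and 1 did not pass, with a median log2 fold change of 1.30. Myocd, the coactivator myocardin, was at 265, 240 and 384 CPM in smooth muscle cells and had 0 UMIs in the gated cells, at least 223-fold over the floor (edgeR adjusted p = 5.18e-05). Hey2, a Notch effector of arteries, was at 46.7, 60.8 and 104.5 CPM against 3.78, 2.20 and 8.85 CPM, a log2 fold change of 4.16 ± 0.40 (edgeR adjusted p = 2.0e-05). Both were higher in smooth muscle cells of each library. Serum response factor itself (Srf) differed by 1.12 ± 0.34 (edgeR adjusted p = 0.0328), and Mrtfb, a partner of it, by 0.08 ± 0.23 (edgeR adjusted p = 0.883).

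The list of myosin phosphorylation held 11 genes and all 11 were higher, with a median of 1.59. Ppp1r12a and Ppp1r12b, targeting subunits of the phosphatase that removes the phosphate from the light chain, rose by 1.96 ± 0.19 and 2.02 ± 0.18 on the log2 scale (edgeR adjusted p = 1.69e-05 and 1.04e-05). Ppp1r12a was at 1411, 1256 and 1393 CPM against 528, 343 and 361 CPM. Kinase and phosphatase genes thus both stood higher in the smooth muscle class. Rhoa, the GTPase that inhibits the phosphatase through Rock kinases, had the small difference of 0.43 ± 0.12 (edgeR adjusted p = 0.0229).

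Of 11 genes of calcium and potassium handling 9 were higher, 0 lower and 2 did not pass, with a median of 3.47. Pln, the phospholamban that restrains the calcium pump of the sarcoplasmic reticulum, was at 294, 209 and 227 CPM in smooth muscle cells and 0 UMIs in the gated cells, at least 178-fold (edgeR adjusted p = 3.94e-05). Cacna1h, a T-type calcium channel, was at 48.4, 28.7 and 49.0 CPM and again 0 UMIs, at least 30.5-fold (edgeR adjusted p = 0.000126). Both were taken by their fitted change, which is no measured size against 0 UMIs. Ryr2, a calcium release channel, had 656 UMIs against 3, a ratio of CPM of 100.2 (counting interval 34.1 to 487). The L-type channel Cacna1c was well measured in both classes, at 1181, 996 and 2172 CPM against 800.5, 811 and 1232 CPM, and did not pass (0.81 ± 0.40, edgeR adjusted p = 0.188). Orai1, a store-operated channel, differed by -0.23 ± 0.25 (edgeR adjusted p = 0.581).

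Among 17 tested genes of the thin filament and dense body 12 were higher, 0 lower and 5 did not pass, with a median of 2.42. Pdlim3, a LIM protein that binds actinin, was at 329, 253 and 278 CPM against 16.4, 5.50 and 3.54 CPM (5.36 ± 0.47, edgeR adjusted p = 9.69e-06). Ldb3, another actinin-binding protein, had 512 UMIs in smooth muscle cells and 3 in the gated cells, a ratio of CPM of 78.2 (counting interval 26.6 to 380). Both proteins belong to the structures that anchor thin filaments. Tpm4, Cnn3, Synpo2, Pdlim7 and Fhl1 did not pass.

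Of 8 non-muscle counterparts of these genes 3 were higher (Actb, Actg1 and Myl6), 0 lower and 5 did not pass, with a median of 0.52. The light chain Myl6, which smooth muscle and non-muscle myosin share, differed by 2.79 ± 0.16 (edgeR adjusted p = 5.43e-07) and Actb, cytoplasmic actin, by 1.39 ± 0.18 (edgeR adjusted p = 0.000165). Myh9, a non-muscle myosin heavy chain, was at 425, 463 and 470 CPM against 395, 455 and 407 CPM and did not pass (0.36 ± 0.15, edgeR adjusted p = 0.126). Of 12 genes of striated muscle 8 were tested, and 0 were called in either direction. These 8 had few UMIs, at most the 10 in smooth muscle cells and 15 in gated cells of Ttn, so nothing is read from the 0. Acta1, with 17 UMIs against 0, was not in the fit.

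The genes whose pattern was most like that of the 10 members, by Pearson's r of log2(CPM + 1) with the members' mean z-score over the 15 sums of class and library, were Kcnab1 (0.98), Rbpms2 (0.98), Nexn (0.97), Flna (0.97) and Wtip (0.97) among 3693 candidates. Kcnab1, a subunit of voltage-gated potassium channels, was at 1701, 1306 and 2185 CPM in smooth muscle cells and at 22.7 to 42.9 CPM in Abcc9/Kcnj8-gated cells. Nexn, the actin-binding protein nexilin, was at 174 to 245 CPM against 22.7 to 31.9 CPM. Flna, the actin cross-linker filamin A, was at 954 to 1701 CPM against 135 to 208 CPM. The likeness rests on 5 classes and 3 libraries, and the sums of a library share its free RNA. Acta2 and Myh11, which set the classes, are part of the mean.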

How the data were processed

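Single-cell libraries of CD45- thymic cells were sequenced from 3 groups, with 1 library in each. The authors counted UMIs per gene and barcode with Cell Ranger on mm10, and the deposited counts are whole numbers, reads in introns included. The submitters' processing notes give Cell Ranger as 7.01 and name GRCm38.p5 and mm10.

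The quality filter took out 509 of 17677 barcodes, those that had at most 1000 genes and also at least 20% of their UMIs from mitochondrial genes. Scrublet in scanpy 1.11.5 marked only 1, 11 and 3 barcodes on its own threshold, so doublets were kept, and removal of the 361, 140 and 225 barcodes with the highest scores was an alternative. Classes followed the UMI gates given above, and barcodes in more than 1 class were dropped. The members, the gates and the lists were chosen with earlier results of these data known. Positions of genes came from GENCODE vM21 (GRCm38).

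Raw counts were summed per class and library into 15 sums. The 16944 genes that passed filterByExpr were fitted in edgeR 4.0.16 (R 4.3.3) with TMM scaling and terms for class and library, which left 8 residual degrees of freedom, and the quasi-likelihood test was used with a threshold of 0.05 on the adjusted p. The SE of a log2 fold change was derived from that change and the F statistic of its test. The scripts were tested on simulated data. CPM are UMIs per 1000000 UMIs of a class. Shares were taken after thinning to 2000 UMIs, with shallower barcodes left out. Counting intervals (exact Poisson and Clopper-Pearson, 95%, scipy 1.17.1) and the floor of 3 counts cover counting error only. Free RNA was summed over barcodes outside the called ones, near the most frequent low UMI count. All 10 members were named, and for each list the 2 genes past the threshold with the largest fitted log2 fold change in each direction, which is not a ranking of measured folds where a class had 0 UMIs. The 5 most alike genes needed at least 50 UMIs in smooth muscle cells of each library. Other list members named in the text were picked for their role after their values had been seen. Alternatives were DESeq2 1.42.0, other scalings, filters and gates, and each library left out in turn.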

Additional observations from a re-analysis of the deposited data

How the results depend on the processing

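Members called by the test are counted here over the 8 outside both gates, with the share of all genes called in brackets. In Abcc9/Kcnj8-gated cells against FB the count was 3 (2.38%). It was 6 in a fit of the 2 classes alone (7.72%) and 1 with no library block (0.767%). Without Foxn1Lin female, Foxn1Lin male and wild type male in turn it was 3 (1.77%), 1 (0.298%) and 1 (0.285%). In FB against EC it was 3 (41.2%), and 4 (39.5%), 2 (26.3%) and 3 (26.8%) with the same libraries left out. In smooth muscle cells against gated cells it was 8 (20.7%), and then 8 (17.6%), 7 (9.61%) and 7 (10.6%). In FB against TEC it was 6 (56%), and 6 with each library left out (52.4%, 43.2% and 43.1%). There the 2 classes alone gave 5 (55.5%) and the fit with no library block 5 (42.9%). With 1.5-fold in place of 2-fold, 2 members passed between Foxn1Lin female and Foxn1Lin male and 1 between Foxn1Lin male and wild type male in smooth muscle cells, where 0 passed 2-fold. At 1.5-fold 24.5% and 26% of all genes passed in these pairs. No paired analysis was possible because each group has 1 library, and the library itself was the block.

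Genes called in smooth muscle cells against Abcc9/Kcnj8-gated cells numbered 3510, but 1677 without Foxn1Lin male, 1783 without wild type male, 949 with the gate free of FB transcripts and 1787 with the Rgs5 gate. In gated cells against FB 404 became 831 with DESeq2, 913 with the 2 classes alone, 130 with no library block, 52 and 48 without Foxn1Lin male and wild type male, 1007 with no Myh11 condition, 831 with the gate free of FB transcripts and 1975 with the Rgs5 gate. In FB against EC 6978 became 4598 and 4504 without the same libraries and 3795 with gates after thinning, and in FB against TEC 9486 became 4036 with gates after thinning. The thinned gates left 9309 genes to test in place of 16944, so that the share called was 40.8% against 41.2% in FB against EC and 43.4% against 56% in FB against TEC. For the other counts the cause was not tested.

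Directions turned only for values that had not passed the test. In FB against EC the log2 fold change of Acta2 was -0.10 with no library block and -0.32 with gates after thinning, and ranged from -0.37 to 0.93 over the libraries left out. That of Myl9 was 0.0018 with doublets removed and 0.45 after thinning (-0.40 to 0.11 over libraries left out) and that of Cnn1 was -1.07 after thinning (-3.06 to 0.79). Over libraries left out Smtn ranged from -0.49 to 0.11, Lmod1 from -1.06 to 0.39 and Mylk from -0.12 to 0.60. In FB against TEC Acta2 was -0.33 after thinning and Myl9 ranged from -0.033 to 0.61 over the libraries left out. In gated cells against FB Smtn ranged from -0.49 to 0.11 over the libraries left out and was -2.44 with the gate free of FB transcripts. Of the other single values in the comparisons 589 kept their direction and their side of the threshold, 24 passed it newly and 18 no longer did. Shares of cells with a UMI depend on depth: at 4000 UMIs in place of 2000, Lmod1 was seen in 73.4% of wild type male smooth muscle cells in place of 50.2%, and Cnn1 in 9.17% in place of 7.59%.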
